A study of Arabidopsis thaliana with 4 samples.

Results

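The probe sets described here form the stretch of the ATH1 array that covers the top of chromosome 4 of Arabidopsis thaliana, where FRI (AT4G00650) lies. ATH1 is a 1-colour Affymetrix expression array, and its probe set numbers run along sequenced clones. The members were taken by probe set number, from 255431 to 255703 with any suffix, which spans the loci AT4G03120 to AT4G00040. The rule leaves out 2 probe sets in that range, so that 271 of 22746 probe sets are members. The rule uses probe set numbers, not signals, but it was set with earlier results of these data known. Of the 271, 147 have 1 gene in the annotation used here, 6 have several and 118 have none. Among the 147, 144 have a locus inside the stretch, and over these the locus number falls as the probe set number rises (Spearman's rho -0.97, a description of the array's numbering). The order is not strict within a clone, so a probe set without a gene is placed only roughly by its neighbours in number. FRI itself is not among the named members, and its level is not reported.

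FRI encodes a scaffold protein that raises transcription of FLC, a MADS-box repressor of flowering. Accessions that carry an active FRI together with an active FLC flower late unless they pass through winter cold. Col-0 itself carries a loss-of-function allele of FRI. Where an active FRI has been crossed into Col-0, a stretch of chromosome 4 from the donor accession comes with it. The labels give neither the source nor the length of such a stretch.

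The mutant is flc-3, labelled as a knockout of AT5G10140 (FLC), with 2 arrays. The other genotype, also with 2 arrays, is the wild type, labelled as carrying FRI and FLC. Both are given as Col-0 in background. In the sample titles the mutant has a lower-case fri, and the labels do not settle whether the genotypes share the same FRI allele. Neither FRI nor FLC could be used to check the genotype labels, since the annotation names no probe set for either. Whole seedlings grew on agar with 3% sucrose, at first for 6 days under continuous light and then at 22 °C for 4 days with light and dark periods of 12 h each, before a move to continuous light at 27 °C. Each array carried RNA pooled in equal amounts from 24, 30, 36 and 42 h after that move, so each value averages over a day.

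Log2 signals over all probe sets correlated at r = 0.980 between the flc-3 arrays, 0.972 between the wild-type arrays and 0.968 to 0.974 across genotypes. With so few arrays, each value is imprecise. A 25S ribosomal RNA control read 1426 and 45.7 in flc-3, against 135 and 47.6 in the wild type, so flc-3 replicate 1 stood apart in that control. Shoot markers (RCA, LHCB4.1, LHCB4.2) and root markers (PYK10, EXPA7, EXPA18) were all above the filter given below, and none of the 6 passed. In that order, their log2 differences (flc-3 minus wild type) were -0.15, -0.15 and -0.20 for shoot, and -0.09, 0.69 and 0.34 for root. The 2 seed markers PAP85 and OLEO3 both rose, with summed signals of 758 and 559 in flc-3 and 80.2 and 60.7 in the wild type. OLEO3 alone read 124 and 75.8 in flc-3, against 17.2 and 21.2 in the wild type. Its wild-type signals lay below that filter, so OLEO3 reached it only through flc-3. The part of these seed transcripts in the results below was not tested.

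The comparison asked whether the signals of the stretch around FRI differ between flc-3 and the wild type. At an adjusted p under 0.05 in limma, 5 tested members were called higher in flc-3 and none lower, and these rises were 1.82-fold to 3.31-fold. Since the RNA came from whole seedlings, more cells of a type and more RNA per cell cannot be told apart. A member counts as tested if its mean log2(signal + 1) reached the 40th percentile of all probe sets, a signal of about 30.8. Of the 271 members, 183 (67.5%) were tested, and 88 lay below that level. The 5 called members are 2.73% of those tested, with a Benjamini-Hochberg adjusted p under 0.05 in limma, against 1.67% of the 13465 other tested probe sets. In the rising direction alone the other probe sets gave 1.35%, and in the falling direction 0.319%. A log2 difference of at least 1 was measured in 5 tested members (2.73%), all positive, against 1.07% of the other tested probe sets. The difference between these shares was not tested.

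Of the 5 called probe sets, 4 have no gene in the annotation, and the fifth matches more than 1 locus. The probe set 255645_at, numbered between those of AT4G00870 and AT4G00890, read 258 and 242 in flc-3, against 88.9 and 83.9 in the wild type. Both genotypes were tight, and the groups lay far apart. Its log2 difference was 1.52 ± 0.11 (SE, 2 arrays in each genotype, adjusted p = 5.2e-05 in limma), or 2.87-fold.

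The largest difference among tested members was that of 255676_at, whose neighbours in number are ATMYC1 (AT4G00480), a bHLH transcription factor gene, and AT4G00500. Its signal was 99.8 and 118 in flc-3, and 33.0 and 31.2 in the wild type. The 3.31-fold rise corresponds to a log2 difference of 1.73 ± 0.16 (limma adjusted p = 0.000244). Its neighbours did not share it: ATMYC1 had a difference of -0.19 and AT4G00500 one of -0.04.

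The remaining calls had smaller rises or wider spreads. Probe set 255521_at, numbered just above AT4G02230, read 124 and 94.5 in flc-3, against 46.1 and 29.6 in the wild type. Its difference was 1.52 ± 0.22 (limma adjusted p = 0.00594), while AT4G02230 itself had -0.03. Probe set 255589_s_at is annotated to both AT4G01590 and AT4G35685, so its signal cannot be assigned to the stretch near FRI alone. It read 69 and 81.2 in flc-3 and 34.2 and 29.7 in the wild type, a difference of 1.21 ± 0.17 (limma adjusted p = 0.00489). The smallest of the called rises was that of 255694_at, with 140 and 158 in flc-3 against 73.5 and 89.7 in the wild type, a difference of 0.86 ± 0.14 (limma adjusted p = 0.011).

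Called members were not flanked by others that passed. Among the 2 nearest probe sets by number on either side of each, the differences ran from -0.22 to 0.59. None of the tested ones was called in limma. Several lay below the filter and could not be called, among them both direct neighbours of 255645_at, and 255695_at, which had the 0.59. Leaving out flc-3 replicate 2 ended the calls of 255589_s_at (adjusted p = 0.0613) and 255694_at (adjusted p = 0.101), so that 3 members were called (1.66%, against 1.22% of others). Without flc-3 replicate 1, the array with the high 25S reading, all 5 kept their call. Without wild type replicate 1 the count was 9 (4.89%, against 2.64% of others), and without wild type replicate 2 it was 11 (5.95%, against 2.06%), of which 10 rose.

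Before adjustment, small p-values made up a larger share of the members than of other probe sets. An unadjusted limma p under 0.01 was reached by 23 of the 183 tested members (12.6%), against 4.53% of the other tested probe sets. Of the 23, 19 had positive differences (10.4%, against 2.84%) and 4 negative ones (2.19%, against 1.69%). Some of the positive ones were tested only through their flc-3 signals, as given below for dim members. At an unadjusted p under 0.05 there were 45 members (24.6%, against 11.9%), 31 of them positive (16.9%, against 6.15%) and 14 negative (7.65%, against 5.74%). With each array centred on its median, 27 members were under 0.01 (14.8%, against 4.68% of others), 18 positive and 9 negative. No set test was made of these shares, and an excess under 0.01 at named loci near FRI was known when the members were chosen. Without flc-3 replicate 1 the count under 0.01 was 13 of 180 (7.22%, against 2.80% of others), and without flc-3 replicate 2 it was 11 of 181 (6.08%, against 2.89%).

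The signals of the single arrays leaned the same way. In 97 tested members (53%, against 42.8% of other probe sets) the flc-3 signals did not overlap with the wild-type signals. Of these, 61 lay above (33.3%, against 20%) and 36 below (19.7%, against 22.9%). The median log2 difference was 0.05 over tested members and -0.01 over other tested probe sets. The median absolute difference between genotypes was 0.18 for members and 0.13 for others. Over all tested members the spread between replicates was no wider: the median absolute difference between the 2 arrays of a genotype was 0.12 for members and 0.12 for others in flc-3, and 0.16 for members and 0.16 for others in the wild type. Below the median signal of tested probe sets it was 0.18 for members and 0.14 for others in flc-3, and 0.18 and 0.18 in the wild type. Above that signal it was 0.09 for members and 0.10 for others in flc-3.

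The runs of 273 probe set numbers on either side had called shares of 2.38% (2 of 84, lower numbers) and 1.86% (3 of 161, higher numbers), close to the members' 2.73%, and other named loci of chromosome 4 had 2.16%. In the lower-numbered run 3 of 84 tested probe sets (3.57%) had an unadjusted p under 0.01, and in the higher-numbered run 6 of 161 (3.73%). Among 973 other tested probe sets with 1 named locus on chromosome 4, 45 (4.62%) did. Within the stretch, cut into 6 equal ranges of number, the counts were 2 of 31, 5 of 34, 3 of 25, 5 of 30, 2 of 31 and 6 of 32 in ascending order of number. The shares ran from 6.45% (2 of 31) to 18.75% (6 of 32), against 4.53% of other tested probe sets. The lowest share lay near that of the other probe sets, so these counts do not show an excess in each range. The difference between ranges was not tested. The ranges at the high end hold the named loci AT4G00040 to AT4G01390 and so the surroundings of FRI, and there 2 and 6 members under 0.01 were positive and none was negative. Among other tested probe sets 2.84% were positive and 1.69% negative at that level. The positive ones include 255632_at and AT4G00040, which were tested only through flc-3. Under 0.05 the former range held 4 positive and 4 negative members, and the latter 7 positive and 0 negative.

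The direction was counted separately for dim and bright members, and the difference between them was not tested. Below the median signal of tested probe sets 14 of 91 members (15.4%) had an unadjusted p under 0.01, against 3.68% of others there. All 14 were positive, where 2.38% of the others were positive and 1.31% negative. Above it the count was 9 of 92 (9.78%), against 5.38%. There 5 were positive (5.43%, against 3.31%) and 4 negative (4.35%, against 2.06%). The filter on dim probe sets also favours a member that passes through the genotype in which it is bright. Among the 14 positive dim members, 255512_at, 255632_at, AT4G02360 and AT4G00040 had both wild-type signals below the filter. They were tested only through flc-3, so the filter fixed their sign. With no filter, 30 of the 271 members (11.1%) had an unadjusted p under 0.01, against 3.11% of the other 22475 probe sets, and 24 of the 30 were positive. Of all 271, 4 were called (1.48%, against 0.521%), and 136 had genotypes that did not overlap (50.2%, against 40.8%). Signals summarised over a probe set cannot tell a difference in transcript level from a difference in how the probes match the transcript.

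Members with 1 annotated gene had 0 calls in limma among 92 tested, against 1.86% of other probe sets with 1 gene. Of the 92, 10 had an unadjusted p under 0.01 (10.9%, against 4.54%) and 28 under 0.05 (30.4%, against 12.1%). An excess at such named loci was known when the members were chosen, so these shares are not independent of that choice. Members with several genes or none had the 5 calls among 91 tested (5.49%, against 1.45% of other such probe sets), 13 under 0.01 (14.3%, against 4.52%) and 17 under 0.05 (18.7%, against 11.7%). The difference between named and unnamed members was not tested. The named gene nearest to a call on the rising side was AT4G01395, with 111 and 117 in flc-3 against 70.4 and 81.3 in the wild type, a difference of 0.58 ± 0.13 (limma adjusted p = 0.0711). It passed without wild type replicate 2 (limma adjusted p = 0.0401). One of 2 probe sets of AT4G02480, an AAA-type ATPase gene, followed at 0.65 ± 0.15 (limma adjusted p = 0.0778). AT4G00040, of the chalcone and stilbene synthase family, read 41.9 and 41.8 in flc-3 and 26.8 and 23.2 in the wild type, a difference of 0.72 (limma adjusted p = 0.104). Its wild-type signals lay below the filter, so it was tested only through flc-3, and its limma adjusted p was 0.299 with no filter and 0.0452 without the intensity trend.

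A run of neighbouring named loci leaned the same way. SEC15B (AT4G02350), a subunit of the exocyst that tethers secretory vesicles, read 109 and 119 in flc-3 and 77 and 83.8 in the wild type, a difference of 0.50 ± 0.13. AT4G02360, of a family with a DUF538 domain, had 42.8 and 51.5 in flc-3 against 26.4 and 29.4 in the wild type, a difference of 0.73 ± 0.18. AT4G02370, of the same family, had 414 and 394 in flc-3 against 301 and 324 in the wild type, a difference of 0.37 ± 0.10. All 3 had genotypes that did not overlap, and their limma adjusted p were 0.117, 0.103 and 0.159. AT4G02360 had wild-type signals below the filter and was tested only through flc-3 (limma adjusted p = 0.286 with no filter). The locus before them, AT4G02340, had a difference of -0.11. The run was chosen after its values were seen.

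The unnamed members with the next smallest p were 255632_at, 255493_at and 255594_at. Their differences were 0.80, 1.02 and 0.74, with limma adjusted p of 0.056, 0.0615 and 0.0648. The first read 45.8 and 45.1 in flc-3 against 25 and 26.5 in the wild type, so that its arrays differed little within a genotype. It was tested only through flc-3, since its wild-type signals lay below the filter, and its limma adjusted p was 0.219 with no filter, 0.0492 with arrays centred on the median and 0.0215 without the intensity trend. The second read 73.8 and 59.9 in flc-3 against 40.6 and 25.8 in the wild type. With arrays centred on the median it passed (limma adjusted p = 0.0449). Without wild type replicate 1 its difference was 1.33. The remaining wild-type signal, 25.8, lay below the filter, so there it was tested only through flc-3. The last, with 112 and 104 in flc-3 against 54.6 and 74.7 in the wild type, passed without wild type replicate 2 (limma adjusted p = 0.0103).

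On the falling side no tested member passed in limma. The nearest was AT4G03120, which encodes the U1-C protein of the spliceosome, at the end of the stretch away from the chromosome tip. It read 90.3 and 81.4 in flc-3, against 178 and 119 in the wild type, a difference of -0.76 ± 0.18 (limma adjusted p = 0.0812). Without wild type replicate 2 the difference was -1.04 and passed (limma adjusted p = 0.00408). The other 11 of the 12 falling members with the smallest p lay between -0.32 and -0.60. They include GT72B1 (AT4G01070), a glucosyltransferase for phenolic compounds, with 324 and 308 in flc-3 against 397 and 392 in the wild type (difference -0.32, limma adjusted p = 0.217). AT4G02120, a CTP synthase gene, had a difference of -0.32, AT4G02850 one of -0.44 and AT4G01390, of a TRAF-like family, one of -0.54.

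The AOP genes at the far end of the stretch encode dioxygenases that modify the side chains of glucosinolates, the sulfur-rich defence compounds of the cabbage family. Accessions of Arabidopsis are known to differ in which AOP genes they express. AOP3 (AT4G03050) read 67.3 and 42.1 in flc-3 against 10.8 and 7.94 in the wild type. The lower quartile of those wild-type arrays was 14.1 and 13.7, above both of their AOP3 signals, so the 5.29-fold difference (2.40 on the log2 scale) is uncertain in size. Its mean log2 signal of 4.56 fell below the filter at 4.99, so it was not among the tested members. With no filter it passed (limma adjusted p = 0.0356). With the filter set on the mean signal, an alternative chosen after seeing the data, it was tested only through its flc-3 signals, and its adjusted p there is not used. AOP1 (AT4G03070), close by, had 134 and 130 in flc-3 against 115 and 136 in the wild type, a difference of 0.08 ± 0.12 with overlapping genotypes. AOP2 has no named probe set in this annotation.

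Among the 88 members below the filter, 39 had genotypes that did not overlap (44.3%, against 37.7% of other probe sets below it). Of these, 25 were higher and 14 lower in flc-3. No share by direction was computed for the other probe sets below the filter, so this split has no background. The differences of the 88 ran from -1.67 to 2.43. The 5 members just below the filter had differences from -0.40 to 0.35, and the 5 just above it from -0.22 to 0.72.

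The largest of these dim differences was that of AT4G01910, of a family with cysteine- and histidine-rich C1 domains. It read 47.6 and 44.1 in flc-3 and 10.9 and 5.33 in the wild type, with limma adjusted p = 0.0569 when no filter was applied. AT4G01920, the next locus and of the same family, had 13 and 13.9 in flc-3 against 5 and 0.492 in the wild type, and AT4G01930, the third in a row, 18 and 17.1 in flc-3 against 13.2 and 13.9 in the wild type. In each of the 3, both flc-3 arrays lay above both wild-type arrays, and the flc-3 signals of AT4G01910 were close to the array medians of 48.5 and 47.1 while the others were dimmer. AT4G01410 read 58.1 and 64.9 in flc-3 and 5.69 and 25.6 in the wild type, whose 2 arrays differed widely. On the falling side, AT4G00910, of the aluminium-activated malate transporter family, had 4.12 and 4.99 in flc-3 against 15.8 and 13 in the wild type.

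The brightest members showed no call. CURT1A (AT4G01150), which bends thylakoid membranes, read 1911 and 2507 in flc-3 and 2559 and 2493 in the wild type, a difference of -0.21 ± 0.19 with overlapping genotypes. AT4G01610, a cathepsin B-like protease gene, read 1881 and 2230 in flc-3 and 1665 and 1494 in the wild type, a difference of 0.38 ± 0.16 (limma adjusted p = 0.392). The remaining 3, all unnamed, were 255435_at at -0.15, 255457_at at -0.06 and 255552_at at 0.32.

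Grouped by role, no list of members had a called gene. Of 13 loci for chloroplast proteins, 4 had a named and tested probe set, and all 4 differences were below 0 (3 of 4 under cyclic loess), with AT4G02530 at -0.23 and CURT1A at -0.21. Of 18 loci for the cell wall and cuticle, 3 were tested, all above 0, with AT4G00750 at 0.39 and TBL26 at 0.36. Of 25 loci for transcription factors and their partners, 3 members were tested, with WRKY47 at 0.33 and ATMYC1 at -0.19. Of 13 protein kinase loci, 3 were tested, with AT4G01330 at 0.20 and AT4G02630 at -0.20. Of 10 loci for membrane transport none was tested, and AT4G00910 was the only one named. Over all tested members the median was 0.05, and each list holds too few tested members to be described as a group. Of 6 loci for FRI and the proteins that act with it, only FLX (AT2G30120) was named, and it lay below the filter at 19.2 and 29.4 in flc-3 against 18.7 and 16.3 in the wild type.

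Where 2 probe sets read the same gene, their values did not always match, and the differences between them were not tested. Those of AT4G02480 had differences of 0.65 and 0.14, the smaller of them in the brighter probe set, and those of AT4G00520 had 0.56 and 0.19. The 2 probe sets of AT4G01290 had 0.38 and -0.09, and those of SETH5 (AT4G00800) 0.20 and -0.21.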

How the data were processed

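The deposited values are signal intensities, linear and not log-transformed, for which the submitters' processing notes name MAS5, with no version given here. This method combines paired probes into 1 value and scales each array. Trimmed by 2% at both ends, the arrays had means of 100.007 to 100.008, and this scaling was kept. Detection calls were not used. Depth has no counterpart on arrays, and 2 arrays per genotype limit the precision.

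Of 22810 probe sets, 64 controls were left out. Values were transformed as log2(value + 1), on which scale changes of dim probe sets are understated. Probe sets whose mean log2 value lay below the 40th percentile were left out, which left 13648. Genotypes were compared, 2-sided, over all of these in R 4.3.3 with limma 3.58.1, using lmFit and a moderated variance that follows intensity (prior df 7.66, residual df 2), and with Benjamini-Hochberg adjustment. This called 230 probe sets, and the members were read off that fit, which was tested on simulated data. The labels do not tell whether the replicates are separate cultures. The p-values therefore reflect only the spread among these arrays, which may be technical.

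Genes come from a platform annotation, with names brought up to date by gene identifier from TAIR10.1. No coordinates are printed, because the deposited values carry no genome build. The members, lists and thresholds were chosen with earlier results of these data known. Genes named in the text are the called members, the 12 with the smallest p in each direction, the 5 brightest, the AOP genes, FRI and its neighbours in number (which could not be found without a named FRI probe set) and the 2 largest differences in each role list. Others, among them dim members, runs of neighbours and pairs of probe sets, were chosen after their values were seen. Alternatives were other normalizations, pseudocounts of 16 and 0.1, other filters, other variance models, the replicate number as a block, each array left out, and narrower definitions of the stretch.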

Additional observations from a re-analysis of the deposited data

How the results depend on the processing

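In the 14 alternatives that kept the members and left out the replicate block, shares of tested members were set beside those of other probe sets. The shares with a call, with an unadjusted p under 0.01 and with genotypes that did not overlap were higher for members in all 14. So was the median difference (0.02 to 0.06). These refits use the same arrays and are not independent. Those that changed only the variance model could not alter the overlap (97 members) or the median (0.05). Another, the filter on the mean signal, was chosen after seeing the data. With each array left out in turn, 3 to 11 members were called, 11 to 32 had an unadjusted p under 0.01, 127 to 151 did not overlap (70.6% to 81.6%, against 67.5% to 76.5% of others), and the median was 0.03 to 0.06. The stricter filter at the 60th percentile left 118 members, with 2 called (1.69%, against 1.64% of others), 12 under 0.01 (10.2%, against 4.69%) and 60 not overlapping (50.8%, against 44.1%). The members with the higher numbers (93 tested) had 13 under 0.01 (14.0%, against 4.53% of others) and 48 not overlapping (51.6%, against 42.8%). The lower-numbered ranges of the stretch had 2 of 31, 5 of 34 and 3 of 25 under 0.01, and 12, 20 and 17 not overlapping. The difference between higher and lower numbers was not tested. Members with a named locus inside the stretch had 0 calls of 90 in limma, 10 (11.1%) under 0.01, 27 under 0.05 and 51 not overlapping, where the other probe sets gave 1.67%, 4.53%, 11.9% and 42.8%. The excess under 0.01 at these loci was known when the members were chosen. Over all probe sets, 121 were called with no filter, 149 with the stricter one, 769 with the replicate block, and 147 to 364 with an array left out (147 lacking flc-3 replicate 1, 364 lacking wild type replicate 1). With the replicate number as a block, 29 members were called (15.8%, against 5.50% of others) and 38 had an unadjusted p under 0.01 (20.8%, against 8.09%). That fit has 1 residual degree of freedom and an infinite prior, and same-numbered arrays did not deviate together (r = 0.09 over all tested probe sets, -0.06 over members), so its p-values are not relied on. With no filter 255521_at (adjusted p = 0.0684) and 255694_at (0.0662) lost their calls, and AOP3 was among the 4 members called. Under quantile normalization AT4G01610 passed (adjusted p = 0.0497). With an array left out, the difference of 255457_at ran from -0.26 to 0.13 (positive without flc-3 replicate 1) and that of AOP1 from -0.045 to 0.20 (negative without wild type replicate 1), and neither was called. The causes of these changes were not tested.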

Other observations

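A further 11 probe sets numbered outside the stretch have a named locus inside it, and 5 of them were tested. None was called in limma, and their differences were 0.30 for AT4G00090, 0.25 for AT4G00170, 0.21 for AT4G03100, -0.22 for AT4G00295 and 0.23 for YAB3, a gene of the YABBY family that specifies the lower side of leaves. AT4G00090 read 90.3 and 102 in flc-3 and 79.8 and 76 in the wild type, and AT4G00170 read 112 and 103 in flc-3 and 94.2 and 85.7 in the wild type. YAB3 had 78.9 and 70.1 in flc-3 and 53 and 75.9 in the wild type, so its genotypes overlapped.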
